A study of Mus musculus with 12 samples.

Results

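Naive CD4 T cells are helper T cells that have left the thymus and not yet met their antigen. WT naive CD4 T cells of C57BL/6 mice after 6 h of stimulation (WT_6) were set against unstimulated WT cells (WT_0), with 2 one-colour arrays in each group, which are 4 of the 12 arrays of the series. The comparison took in all probe sets with at least 1 gene symbol, 23410 in number, and 5443 further probe sets had none. The WT_6 cells were stimulated through the T cell receptor with soluble anti-CD3 at 0.25 ug/mL and through the costimulatory receptor CD28 with soluble anti-CD28 at 0.5 ug/mL, over a coat of goat antibody against hamster immunoglobulin. WT_24 cells had the same stimulation for 24 h. PP2Ac_Tg_6 and PP2Ac_Tg_0 cells were of the same strain and carried a PP2Ac transgene; PP2Ac, the product of Ppp2ca, is the part of protein phosphatase 2A that removes phosphate. These cells were stimulated for 6 h or left unstimulated. All groups were grown in RPMI with 10% fetal calf serum. The labels do not give the age or sex of the mice, how the cells were purified, whether mice were pooled or what drives the transgene. They do not say whether WT_0 cells spent 6 h in culture, so stimulation and time in culture cannot be told apart. The source label of the WT arrays also holds the word transgenic, and the groups follow the titles.

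When the T cell receptor and CD28 are engaged together, calcium and calcineurin bring NFAT factors into the nucleus, the ERK kinases switch on the EGR and AP-1 factors, and a further branch frees NF-kB. These factors act together at cytokine genes such as Il2. In the hours before the first division the cell leaves quiescence. It makes MYC, builds ribosomes, imports amino acids and raises its own nucleotide, lipid and protein synthesis, while genes that hold a naive cell at rest and in circulation are turned down.

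Each group had 1 array without a mark, called replicate 1, and 1 whose title carries the mark Rep, called replicate 2. Nothing in the labels says that replicates came from separate mice or cultures, so the p-values measure only the spread between these samples, which may be technical, and the number of arrays limits the precision. All values are log2 values quantile normalised between arrays. A difference is the WT_6 minus the WT_0 mean of these log2 values, given ± its standard error (SE) in the fit, with limma's Benjamini-Hochberg adjusted p over the 23410 probe sets. Genes are called higher or lower where that p is under 0.05. In every gene so called below, the 2 WT_6 values lay outside the 2 WT_0 values, and the call survived leaving out each of the 4 arrays in turn, unless the text says otherwise. No level is compared between genes, since probe sets differ in brightness.

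Replicate arrays correlated with r = 0.992 in WT_6 and 0.993 in WT_0 across probe sets, and WT_6 with WT_0 arrays with r from 0.974 to 0.981. The replicate 1 arrays stood apart at both times in transcripts of neutrophils and their precursors. The mean level of 11 such markers was 11.77 on replicate 1 and 8.76 on replicate 2 of WT_6, against 12.44 and 9.06 in WT_0. The neutrophil elastase gene Elane read 11.37 and 8.59 in WT_6, against 12.17 and 9.04 in WT_0. None of the 11 passed the test between the times (limma), and the replicates differed by more than the times did. The median difference of the 11, WT_6 minus WT_0, was -0.74 within replicate 1 and -0.13 within replicate 2, and 1 of the 11 differences was positive. The mean of 8 monocyte and macrophage markers was 10.35 and 8.84 in WT_6, against 10.70 and 9.42 in WT_0. Of these 8, 1 was lower, 0 in every fit without 1 array and 2 with the replicate as a block, and their median of -0.61 lay between -1.35 (without WT_6 replicate 1) and 0.36 (without WT_6 replicate 2). The part of these transcripts in the results was not tested, other than by leaving out each array.

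T cell markers were high on all 4 arrays. The mean level of 9 was 12.28 and 12.31 in WT_6, against 12.55 and 12.50 in WT_0, and Cd4 itself read 13.40 and 13.31 in WT_6, against 13.73 and 13.74 in WT_0. Of the 9, 4 were lower and 1 higher (median -0.34), and 1 was lower whichever array was left out. Among all genes 12.5% were higher and 15.0% lower at 6 h, and the marker counts are read beside those shares. B cell markers were lower at 6 h. Of 8 measured, 5 were lower and none higher, with a median difference of -1.42, and 3 were lower without WT_0 replicate 2. Cd79b, a chain of the B cell receptor complex, read 10.45 and 11.34 in WT_6, against 12.50 and 12.63 in WT_0 (-1.67 ± 0.28, adjusted p = 0.0019). The mean level of the 8 B cell markers was 8.95 and 9.73 in WT_6, against 10.38 and 10.62 in WT_0. In bulk RNA such as this, fewer cells of a type and less RNA per cell cannot be told apart. Of 7 natural killer cell markers, 2 were lower, or 1 without WT_6 replicate 1, and their mean was 7.73 and 8.63 in WT_6, against 8.58 and 9.35 in WT_0. Of 7 dendritic cell markers, likewise 2 were lower, or 1 without WT_6 replicate 1, and their mean was 6.91 and 7.17 in WT_6, against 7.45 and 7.70 in WT_0. With only 7 markers each, the natural killer and dendritic cell counts say little beside the 15.0% of all genes that were lower. The CD8 chain Cd8a read 8.94 and 7.81 in WT_6, against 7.89 and 7.82 in WT_0, and the groups overlapped.

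At 6 h, 2955 probe sets were higher (12.6% of those tested) and 3254 were lower (13.9%). A change of at least 2-fold was met by 841 higher probe sets (3.59%) and 803 lower ones (3.43%), and 26.5% of probe sets (27.5% of genes) passed in either direction. With 1 probe set for each of 19938 genes, 2496 genes were higher (12.5%) and 2982 lower (15.0%), with 714 (3.58%) and 726 (3.64%) of them changed at least 2-fold, and the median difference over all genes rounded to 0.00. These shares are the background against which the markers above and the gene groups below are read.

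**Figure D1:**
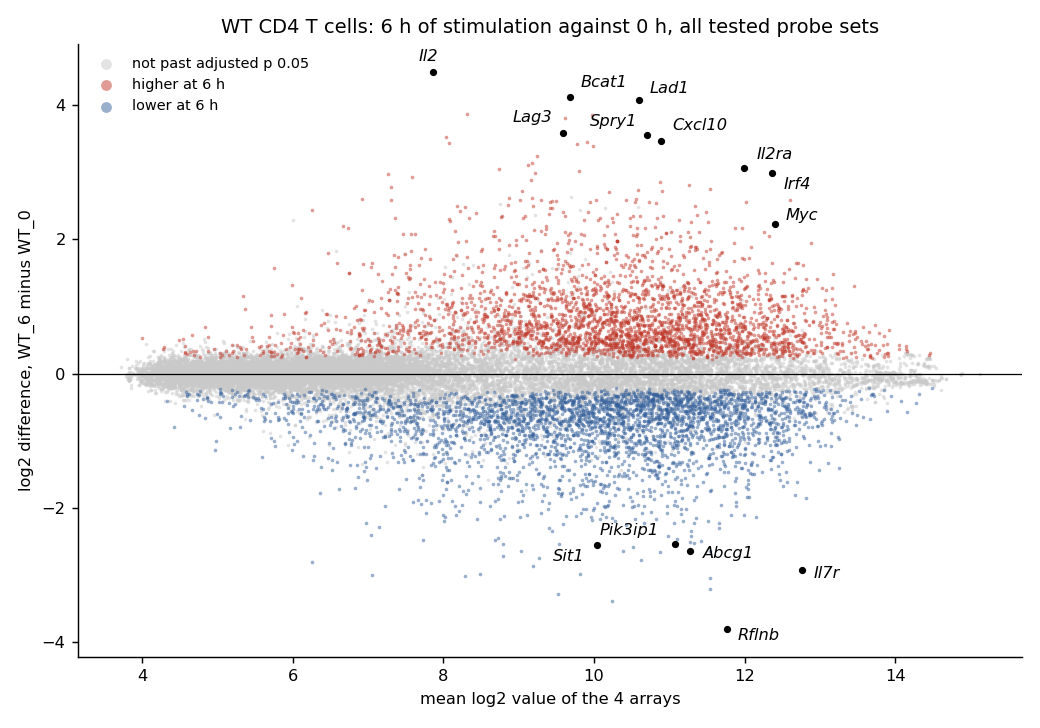
Each point is 1 of 23410 probe sets: its log2 difference, WT_6 minus WT_0, on the vertical axis against its mean log2 value on the 4 arrays on the horizontal axis. Red points passed adjusted p 0.05 and were higher, blue ones passed and were lower, and grey ones did not pass. Il2 (4.49) and Bcat1 (4.11) lie at the top and Rflnb (-3.80) at the bottom.

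The largest rises were of mixed function. Il2 had the largest of all and is described with the cytokines. Bcat1, the cytosolic enzyme that starts the breakdown of branched-chain amino acids, read 11.11 and 12.37 in WT_6, against 7.56 and 7.70 in WT_0 (4.11 ± 0.55, adjusted p = 5.3e-04). Lad1, a filament protein known from basement membranes, read 12.43 and 12.84 in WT_6, against 8.35 and 8.78 in WT_0 (4.07 ± 0.28, adjusted p = 2.7e-05). The steroid-metabolising enzyme gene Akr1c18 was 3.87 ± 0.61 higher. Dctd, the deaminase that supplies the precursor of thymidylate, read 11.95 and 11.85 in WT_6, against 8.11 and 8.0 in WT_0 (3.85 ± 0.11), and its adjusted p of 1.1e-06 was the smallest of all probe sets. Also among the 20 largest rises were Ak4, a mitochondrial adenylate kinase (3.52), Car12, a carbonic anhydrase (3.43), Mfsd2a, a lysophospholipid transporter (3.42), Mettl1, which methylates tRNA (3.38), Smyd2, a lysine methyltransferase (3.10), and Utf1, a chromatin protein known from embryonic stem cells (3.05).

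The genes that fell furthest were a mixed group. Rflnb, which encodes a filamin-binding protein, read 9.57 and 10.17 in WT_6, against 13.65 and 13.69 in WT_0 (-3.80 ± 0.32, adjusted p = 5.2e-05), a level 14.0-fold higher in WT_0. Tdrp fell by 3.39 and Cyp2s1, a cytochrome P450, by 3.28. The sialyltransferase gene St8sia6 fell by 3.20. Pde2a, a phosphodiesterase of cyclic nucleotides, read 9.86 and 10.18 in WT_6, against 13.12 and 12.99 in WT_0 (-3.04 ± 0.40, adjusted p = 5.2e-04). Others among the 20 largest falls were Slc25a35, a member of the mitochondrial carrier family (-2.98), Acss1, the mitochondrial enzyme that activates acetate (-2.77), Fanci, of the Fanconi anaemia DNA repair pathway (-2.74), Acpp, an acid phosphatase (-2.72), Card6 (-2.66), Mex3b, an RNA-binding protein (-2.64), and Cyp2d22, another cytochrome P450 (-2.58). Rnf32 read 5.41 and 5.68 in WT_6, below the lower quartile of all values (5.81), so its difference is at least 2.74 when readings below that quartile are set to it. The WT_0 values, 8.47 and 8.63, were well above it.

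Among 24 immediate early transcription factors, 9 were higher and 1 lower, with a median of 0.43. The lower member, Fosb (-0.88), lost its call without WT_0 replicate 1 and without WT_6 replicate 1. Myc, the factor that drives cell growth, read 13.58 and 13.45 in WT_6, against 11.56 and 11.01 in WT_0 (2.23 ± 0.20, adjusted p = 6.5e-05). The zinc finger factors Egr1, Egr2 and Egr3 were higher by 1.46 ± 0.17, 1.33 ± 0.17 and 1.05 ± 0.16. Nr4a1, an orphan nuclear receptor used as a reporter of receptor signal strength, read 13.60 and 13.84 in WT_6, against 12.84 and 12.39 in WT_0 (1.11 ± 0.16, adjusted p = 7.7e-04). Srf, the serum response factor, was 0.65 ± 0.11 higher. Serum response factor binds the CArG box, and the Egr2 promoter is shown because it holds one. RefSeq (GRCm38.p6) gives Egr2 5 promoter windows of 300 bases, from 250 bases before to 50 after an annotated start. The window at chr10:67537619-67537918 on the plus strand follows 5′ to 3′, with the CArG box in capitals, its first base at -72 from the start:
Egr2 promoter: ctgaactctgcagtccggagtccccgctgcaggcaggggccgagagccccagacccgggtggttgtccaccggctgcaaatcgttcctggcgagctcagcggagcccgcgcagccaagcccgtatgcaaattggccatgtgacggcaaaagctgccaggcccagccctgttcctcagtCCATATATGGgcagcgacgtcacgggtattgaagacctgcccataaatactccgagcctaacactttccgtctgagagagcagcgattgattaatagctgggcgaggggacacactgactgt
A CArG box was found in 5 of the 24 windows of the immediate early genes (20.8%), which belong to 2 of 18 genes, and in 1.63% of all 32851 windows of 27025 genes, searching both strands. All but 1 of the 5 are windows of Egr2, several of them overlapping on the same box, and Egr2 was printed because it holds one, so the share says little of the list. A match is a description of the letters and not evidence of binding. The other motifs searched were the E-box CACGTG, the NFAT core GGAAAA, the AP-1 site TGANTCA, the sterol element TCACNCCAC, the NF-kB motif and the cyclic AMP response element. None of them was found in the window of Nr4a1 or of Klf2, nor was a CArG box.

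The NFAT, NF-kB and IRF4 group of factors had 8 higher and 2 lower members among 13 measured, with a median of 0.63. Irf4, which sets how strongly a T cell responds to its receptor, read 13.90 and 13.83 in WT_6, against 10.99 and 10.76 in WT_0 (2.99 ± 0.18, adjusted p = 1.5e-05), a 7.94-fold higher level. Its partner Batf was 0.72 ± 0.15 higher. Irf8 read 12.21 and 12.50 in WT_6, against 10.70 in both WT_0 arrays (1.66 ± 0.14, adjusted p = 5.5e-05). Hif1a, the oxygen-regulated factor that also promotes glycolysis, was 0.74 ± 0.10 higher, and Nfkb2, the precursor of an NF-kB subunit, 0.64 ± 0.09. The 2 lower members were NFAT genes. Nfatc2, the NFAT protein most abundant in resting T cells, read 10.08 and 10.02 in WT_6, against 11.06 and 11.10 in WT_0 (-1.03 ± 0.10, adjusted p = 9.9e-05), and Nfatc3 fell by 0.68 ± 0.08.

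Inhibitors and adaptors of NF-kB had 7 higher and 2 lower members of 16, with a median of 0.30. Tnip3, which binds the deubiquitinase A20 and restrains NF-kB, read 11.47 and 11.13 in WT_6, against 8.23 and 8.36 in WT_0 (3.01 ± 0.17, adjusted p = 1.4e-05). Malt1, a protease upstream of NF-kB, was 1.52 ± 0.12 higher, and the nuclear co-factors Bcl3 and Nfkbid were 1.05 ± 0.15 and 0.84 ± 0.14 higher. The gene of A20, Tnfaip3, read 12.10 and 12.40 in WT_6, against 12.60 and 12.62 in WT_0, and did not pass (adjusted p = 0.1, or 0.019 with the replicate as a block). It was chosen after its values were seen.

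Factors that steer T helper lineages moved in both directions, to be read beside 12.5% of all genes higher and 15.0% lower. Of 20 measured, 5 were higher and 3 lower, with a median of -0.19 (-0.08 without WT_0 replicate 1, -0.29 without WT_0 replicate 2), and 3 were higher whichever array was left out, with 1 lower without WT_0 replicate 1 and 0 lower without WT_6 replicate 1. Tbx21, the T-bet factor of Th1 cells, stood out. It read 11.54 and 12.03 in WT_6, against 9.35 and 9.52 in WT_0 (2.34 ± 0.27, adjusted p = 2.5e-04). Ahr, the aryl hydrocarbon receptor, was 0.68 ± 0.13 higher.

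**Figure D2:**
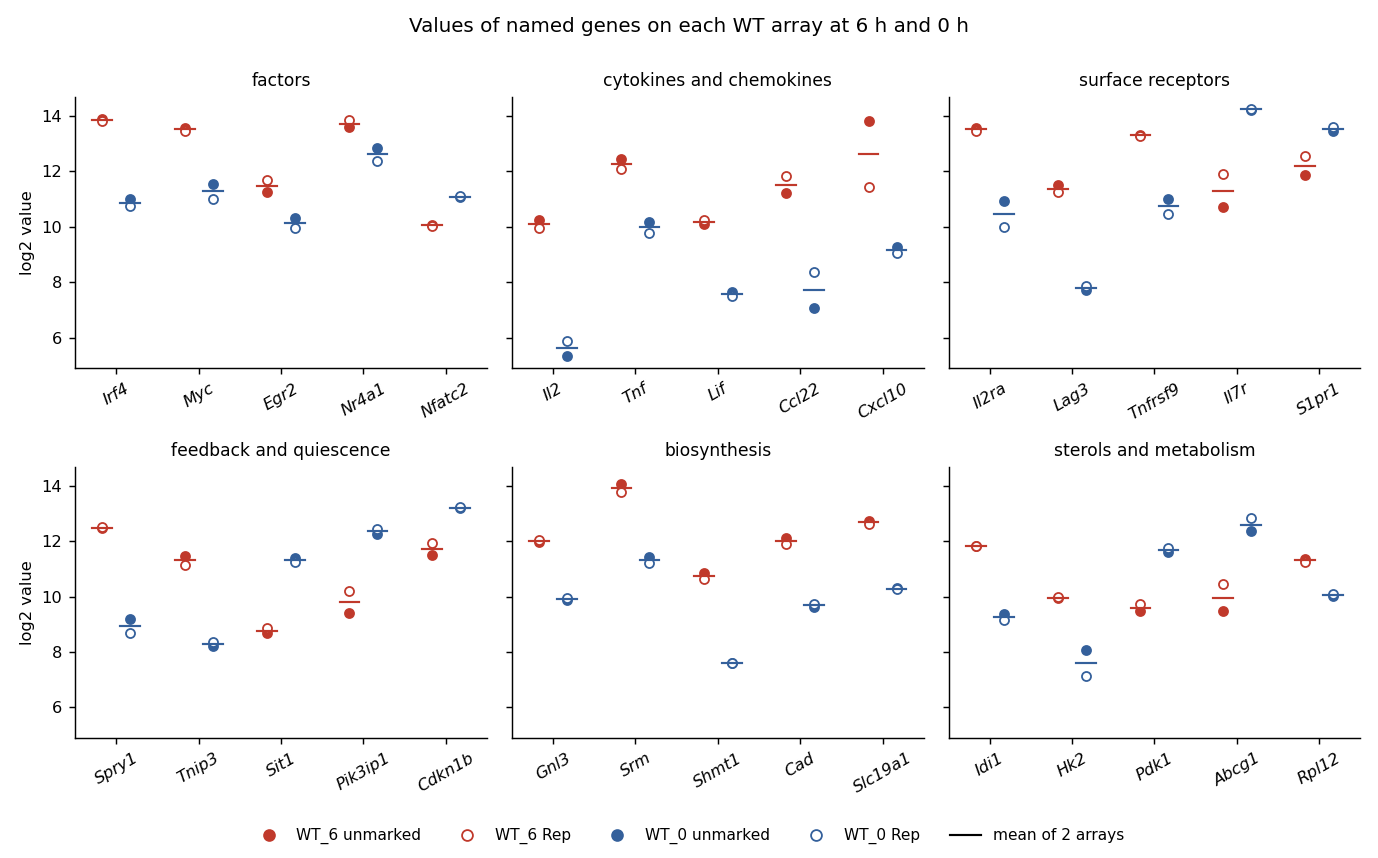
Log2 values of 30 named genes on each of the 4 arrays, WT_6 in red on the left and WT_0 in blue on the right of each pair; filled points are replicate 1, open points replicate 2, and lines are the means of 2 arrays. The genes were picked from those named in the text, in part for lack of overlap, so the gap between groups here is no result. Cxcl10 has the widest gap between its WT_6 arrays, 13.82 and 11.43.

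Cytokine transcripts rose more often than they fell. Of 25 measured cytokine genes, 11 were higher and 1 lower, with a median of 0.90 (2 were lower with the replicate as a block). Il2, the growth factor of T cells, read 10.26 and 9.96 in WT_6, against 5.35 and 5.90 in WT_0 (4.49 ± 0.55, adjusted p = 3.4e-04). Its mean in WT_0 lay below the lower quartile of all values, and the difference is at least 4.26 when readings below that quartile are set to it. Tnf read 12.45 and 12.10 in WT_6, against 10.19 and 9.79 in WT_0 (2.29 ± 0.22, adjusted p = 9.3e-05). Lif, of the interleukin 6 family, was 2.61 ± 0.27 higher, Mif, a stored pro-inflammatory cytokine, 1.61 ± 0.15, and the Th2 cytokine gene Il4 0.90 ± 0.11. Ltb, which with lymphotoxin alpha shapes lymphoid tissue, was the lower member (-0.83 ± 0.11). Ifng, the Th1 cytokine gene, chosen after its values were seen, read 10.25 and 10.55 in WT_6, against 7.37 and 8.01 in WT_0 (2.71 ± 0.42, adjusted p = 0.0012).

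The Il2 promoter is shown because it is the classical target of NFAT. RefSeq places its window at chr3:37125905-37126204 on the minus strand. In the sequence, 5′ to 3′, capitals mark the NFAT core GGAAAA on either strand, at -137 and -48 from the start:
Il2 promoter: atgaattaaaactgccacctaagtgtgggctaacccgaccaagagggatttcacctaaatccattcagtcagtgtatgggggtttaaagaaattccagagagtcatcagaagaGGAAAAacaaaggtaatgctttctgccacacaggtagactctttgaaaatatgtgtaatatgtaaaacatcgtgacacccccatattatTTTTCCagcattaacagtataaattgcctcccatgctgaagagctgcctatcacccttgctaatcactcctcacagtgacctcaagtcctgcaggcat
The core was found in 23.4% of all windows, 8 of 22 windows of the cytokine list (36.4%) and 5 of 10 windows of the chemokine list (50%). Among genes at least 2-fold higher it was found in 23.8% of 706 windows, near the share of all windows. The share was 19.4% of 764 windows of genes at least 2-fold lower and 4.17% of 24 windows of immediate early genes. Windows holding the NF-kB motif were 1.63% of all, 4 of 22 of the cytokine windows (18.2%) and 3 of 10 of the chemokine windows (30%), on either strand. They were 2.55% of windows of genes at least 2-fold higher and 0.654% of those at least 2-fold lower. The cytokine and chemokine lists hold few windows, and all these shares are a description only.

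Chemokines, the secreted signals that draw other cells, had 9 higher and 1 lower of 13 measured, with a median of 1.76, the highest of the signalling groups. The lower member, Ccl5 (-0.60), lost its call when either WT_0 array or WT_6 replicate 1 was left out. Ccl22 read 11.21 and 11.84 in WT_6, against 7.08 and 8.36 in WT_0 (3.80 ± 0.48, adjusted p = 4.1e-04), and Ccl17, which shares its receptor CCR4, was 2.42 ± 0.44 higher. Ccl3 and Ccl4, inflammatory chemokines, were 2.74 ± 0.34 and 1.26 ± 0.18 higher. Cxcl9, a ligand of CXCR3 induced by interferon gamma, read 11.06 and 10.66 in WT_6, against 6.92 and 8.32 in WT_0 (3.24 ± 0.49, adjusted p = 0.001). Cxcl10, of the same group, read 13.82 and 11.43 in WT_6, against 9.26 and 9.07 in WT_0 (3.46 ± 0.66, adjusted p = 0.0039). Both of its WT_6 values were above both WT_0 values, but replicate 1 was far above replicate 2.

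Transcripts of surface receptors that receive growth and costimulatory signals rose more often than they fell. Protein on the cell surface was not measured. Among 16 activation antigens and costimulators, 10 were higher and 1 lower, with a median of 0.82; the lower one, Cd226 (-0.86), lost its call without either WT_0 array or without WT_6 replicate 1. Il2ra, the alpha chain that gives the interleukin 2 receptor its high affinity, read 13.58 and 13.47 in WT_6, against 10.93 and 10.00 in WT_0 (3.06 ± 0.33, adjusted p = 1.7e-04). The transferrin receptor Tfrc, which brings iron into growing cells, was 2.56 ± 0.26 higher, Cd200 2.06 ± 0.22, Slamf1 1.84 ± 0.25 and the costimulator Icos 1.08 ± 0.13. Cd69, which retains activated cells in lymphoid tissue, read 13.50 and 13.83 in WT_6, against 12.23 and 12.30 in WT_0 (1.40 ± 0.31, adjusted p = 0.0078), and was 1.24 higher without WT_6 replicate 2, where its call was lost. Of 12 receptors of the TNF family, 5 were higher and none lower, with a median of 0.35, or 0.53 without WT_0 replicate 1 (1 was lower with the replicate as a block and without WT_6 replicate 1). Tnfrsf9, the costimulator 4-1BB, read 13.32 and 13.27 in WT_6, against a mean of 10.74 in WT_0 (2.56 ± 0.19, adjusted p = 3.0e-05). The death receptor Fas was 1.41 ± 0.18 higher and the costimulator Tnfrsf4, OX40, 1.12 ± 0.16.

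Tnfsf4, the ligand of OX40, read 8.77 and 8.44 in WT_6, against 5.86 and 6.17 in WT_0 (2.59 ± 0.20, adjusted p = 3.4e-05). The CD40 ligand gene Cd40lg fell by 0.68 ± 0.14. These were among 10 measured ligands of the TNF family, of which 4 were higher and 1 lower, with 2 higher without WT_0 replicate 1, 1 higher without WT_6 replicate 2 and 2 lower without WT_6 replicate 1.

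Inhibitory receptors and ligands had 4 higher and 1 lower of 12 measured. Their median of 0.23 was 0.44 without WT_0 replicate 1, 0.03 without WT_0 replicate 2 and 0.15 without WT_6 replicate 1; 2 were lower with the replicate as a block, without WT_0 replicate 2 and without WT_6 replicate 1. Lag3, which binds MHC class II and restrains activated cells, read 11.50 and 11.25 in WT_6, against 7.74 and 7.85 in WT_0 (3.58 ± 0.18, adjusted p = 1.0e-05). Pdcd1lg2, a ligand of PD-1, was 1.78 ± 0.23 higher and the receptor Btla 1.29 ± 0.21. Cd96, a receptor of the nectin family, fell by 1.07 ± 0.20.

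Transcripts of receptors for survival cytokines and for tissue exit mostly went the other way. Of 22 cytokine receptors, 3 were higher and 10 lower, with a median of -0.41, and 6 were lower without WT_0 replicate 1. Il7r, the receptor through which naive cells receive their survival signal, read 10.72 and 11.89 in WT_6, against 14.22 and 14.24 in WT_0 (-2.93 ± 0.35, adjusted p = 3.1e-04), so both stimulated values lay far below the near-identical unstimulated ones. Il18r1 fell by 2.08 ± 0.28, Il6ra by 1.58 ± 0.14 and Il4ra by 0.79 ± 0.11. Il15ra, which presents interleukin 15, was 2.56 ± 0.23 higher, and Il2rb, the chain shared by the interleukin 2 and 15 receptors, 0.64 ± 0.08. Among 18 chemokine, egress and homing receptors, 2 were higher and 8 lower, with a median of -0.69. The higher ones were Ccr8 (3.45 ± 0.40) and Ccr4 (2.59 ± 0.22), receptors of skin and effector homing. S1pr1, the sphingosine 1-phosphate receptor that lets cells leave lymph nodes, read 11.86 and 12.55 in WT_6, against 13.46 and 13.59 in WT_0 (-1.32 ± 0.20, adjusted p = 9.6e-04). Itga4 and Itgb7, which pair as the gut-homing integrin, fell by 2.13 ± 0.28 and 2.06 ± 0.14.

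Feedback regulators of the same pathways were among the steepest rises. Spry1, a Sprouty protein that restrains ERK signalling, read 12.48 and 12.49 in WT_6, against 9.19 and 8.68 in WT_0 (3.55 ± 0.17, adjusted p = 8.6e-06). The ERK phosphatase gene Dusp5 was 2.05 ± 0.15 higher, the related Spred1 1.61 ± 0.18 and Dusp2, a nuclear phosphatase, 0.99 ± 0.08. Dusp7 fell by 0.80 ± 0.10. Over 14 members of this ERK feedback list, 6 were higher and 3 lower, with a median of 0.27 (0.12 without WT_6 replicate 2), and 1 was lower without WT_0 replicate 2 or without WT_6 replicate 1. Of 11 SOCS, CISH and PIM genes, which answer cytokine receptors, 6 were higher and none lower, with a median of 0.49. Cish, an inhibitor of STAT5 signalling, read 12.57 and 12.53 in WT_6, against 10.25 and 10.14 in WT_0 (2.36 ± 0.21, adjusted p = 7.3e-05), and Socs1 was 1.19 ± 0.17 higher. Of 7 regulators of G protein signalling, 1 was higher and 2 lower, beside 12.5% higher and 15.0% lower of all genes. These are too few to read as a group. Rgs16 was 2.29 ± 0.22 higher, and Rgs2 and Rgs14 were lower (-1.67 ± 0.30 and -1.35 ± 0.11).

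Genes of quiescence and the naive state fell together. Of 26 measured, 17 were lower and 1 higher, with a median of -0.75. The higher one, Igfbp4 (0.86), lost its call without WT_0 replicate 2 or WT_6 replicate 1, and 2 were higher with the replicate as a block. Pik3ip1, an inhibitor of PI3 kinase, read 9.41 and 10.21 in WT_6, against 12.26 and 12.44 in WT_0 (-2.54 ± 0.29, adjusted p = 2.3e-04). Sesn1, which restrains the growth kinase mTORC1, fell by 1.97 ± 0.17 and Tob1, an anti-proliferative protein, by 1.59 ± 0.12. Cdkn1b, the cyclin kinase inhibitor p27, read 11.49 and 11.93 in WT_6, against 13.19 and 13.23 in WT_0 (-1.5 ± 0.15, adjusted p = 1.3e-04). Rbl2, a retinoblastoma-related repressor, fell by 1.45 ± 0.10, and Lef1, a factor of naive T cell identity, by 0.94 ± 0.09. Klf2, which drives S1pr1 in naive cells, read 11.69 and 12.18 in WT_6, against 12.53 and 12.66 in WT_0 (-0.65 ± 0.16, adjusted p = 0.014). Its call was lost without WT_0 replicate 2 (-0.59) and without WT_6 replicate 1 (-0.41).

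Transcripts of the T cell receptor machinery were themselves mostly lower. In 22 genes of the receptor complex and proximal signalling, 13 were lower and 2 higher, with a median of -0.41; 8 were lower without WT_0 replicate 2, and 1 was higher without either WT_0 array or without WT_6 replicate 2. The adaptor and kinase genes moved most. Txk, a Tec family kinase, read 10.04 and 10.44 in WT_6, against 12.05 and 12.13 in WT_0 (-1.85 ± 0.13, adjusted p = 2.8e-05). Themis, Grap2, Skap1 and Fyb, adaptors near the receptor, fell by 1.81 ± 0.19, 1.68 ± 0.13, 1.65 ± 0.15 and 1.42 ± 0.14. The 2 higher members were Ptprc, the phosphatase CD45, whose call (0.30) was lost in each of those fits, and Zap70. Zap70, the kinase bound to the receptor, read 12.72 and 12.70 in WT_6, against 11.96 and 11.81 in WT_0 (0.83 ± 0.09, adjusted p = 1.5e-04).

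Of 19 intracellular brakes on the receptor, 7 were lower and 4 higher. Their median of -0.27 was -0.41 without WT_0 replicate 2 and -0.08 without WT_6 replicate 2, and 2 were higher without WT_0 replicate 1. Sit1, a transmembrane adaptor that dampens receptor signals, read 8.68 and 8.85 in WT_6, against 11.39 and 11.23 in WT_0 (-2.55 ± 0.20, adjusted p = 4.3e-05). Sla2, which promotes receptor degradation, fell by 2.22 ± 0.13, the phosphatase Ubash3a by 1.34 ± 0.12 and Pag1, which recruits the inhibitory kinase CSK, by 1.32 ± 0.11. The related Sla was 1.25 ± 0.10 higher. GIMAP GTPases, which support survival of resting lymphocytes, had 7 of 8 lower and none higher, with a median of -0.61; Gimap3 fell by 0.77 ± 0.10 and Gimap1 by 0.72 ± 0.09.

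Of 12 genes of the MYC network, 2 were higher and 2 lower, beside 12.5% higher and 15.0% lower of all genes. Besides Myc, its partner Max was 0.45 ± 0.09 higher. Mxd4 and Mxi1, which compete with MYC for MAX, were lower. Mxd4 read 9.21 and 9.89 in WT_6, against 11.69 and 11.87 in WT_0 (-2.23 ± 0.25, adjusted p = 2.1e-04), and Mxi1 fell by 1.01 ± 0.10.

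Transcripts of ribosome building changed most uniformly among the lists. All 43 measured genes of ribosome biogenesis were higher, by 0.27 to 2.57, with a median of 1.67, beside 12.5% of all genes higher and a median near 0. Between 41 and 42 of them were higher when 1 array was left out, and the median was 1.79 within replicate 1 and 1.54 within replicate 2. Gnl3, nucleostemin, read 11.98 and 12.03 in WT_6, against 9.88 and 9.94 in WT_0 (2.09 ± 0.10, adjusted p = 8.6e-06). Grwd1, an assembly factor of the large subunit, read 11.18 and 11.07 in WT_6, against 8.67 and 8.75 in WT_0 (2.41 ± 0.10, adjusted p = 8.6e-06). Rrp1b was 2.26 ± 0.11 higher, Dkc1, the pseudouridine synthase dyskerin, 2.00 ± 0.10, Nolc1 1.83 ± 0.09 and the helicase gene Ddx21 1.37 ± 0.08.

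The transcripts of the ribosomal proteins themselves did not follow. Of 31 measured, 3 were higher and none lower, with a median of -0.05 that lay between -0.09 (without WT_6 replicate 2) and -0.01 (without WT_6 replicate 1) when an array was left out (1 was lower with the replicate as a block). Rpl12 was the main exception, with 11.37 and 11.23 in WT_6, against 10.01 and 10.09 in WT_0 (1.25 ± 0.09, adjusted p = 2.7e-05), and Rpl30 was 0.62 ± 0.13 higher. Probe sets of ribosomal protein genes can also read their many processed pseudogenes. Translation initiation factors were higher in 19 of 23, with none lower and a median of 0.72. Eif5a, which helps the ribosome through difficult peptide bonds, read 14.23 and 14.00 in WT_6, against 12.84 and 12.76 in WT_0 (1.31 ± 0.10, adjusted p = 3.8e-05), and the exchange factor subunit Eif2b3 was 1.73 ± 0.11 higher. Cytosolic tRNA synthetases were higher in 16 of 18, with none lower and a median of 1.19, and 10 were higher without WT_0 replicate 1 or without WT_6 replicate 2. Farsb and Kars, which charge the tRNAs of phenylalanine and lysine, were 1.37 ± 0.10 and 1.17 ± 0.09 higher.

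The E-box CACGTG, the site MYC and MAX bind, was found in 122 of 706 promoter windows of genes at least 2-fold higher (17.3%), 59 of 764 windows of genes at least 2-fold lower (7.72%), 11 of 46 windows of ribosome biogenesis genes (23.9%) and 7.15% of all windows. RefSeq windows were matched for 577 of the 714 higher genes and 577 of the 726 lower genes. A gene can have several windows that overlap, and other factors bind the same letters. The Grwd1 window at chr7:45830740-45831039 on the minus strand is shown as an example of a growth gene with an E-box, in capitals, at 34 bases past the start; it was chosen for print after its values were seen:
Grwd1 promoter: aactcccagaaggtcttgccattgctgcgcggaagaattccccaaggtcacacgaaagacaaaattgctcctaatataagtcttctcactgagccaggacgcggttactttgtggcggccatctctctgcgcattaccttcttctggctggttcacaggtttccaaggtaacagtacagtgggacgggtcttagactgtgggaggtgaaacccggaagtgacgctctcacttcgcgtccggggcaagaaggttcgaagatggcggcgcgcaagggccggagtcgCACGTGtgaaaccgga
No motif searched was found in the window of Nop56, another gene of the list, which read 13.68 and 13.54 in WT_6, against 12.48 and 12.55 in WT_0.

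**Figure D3:**
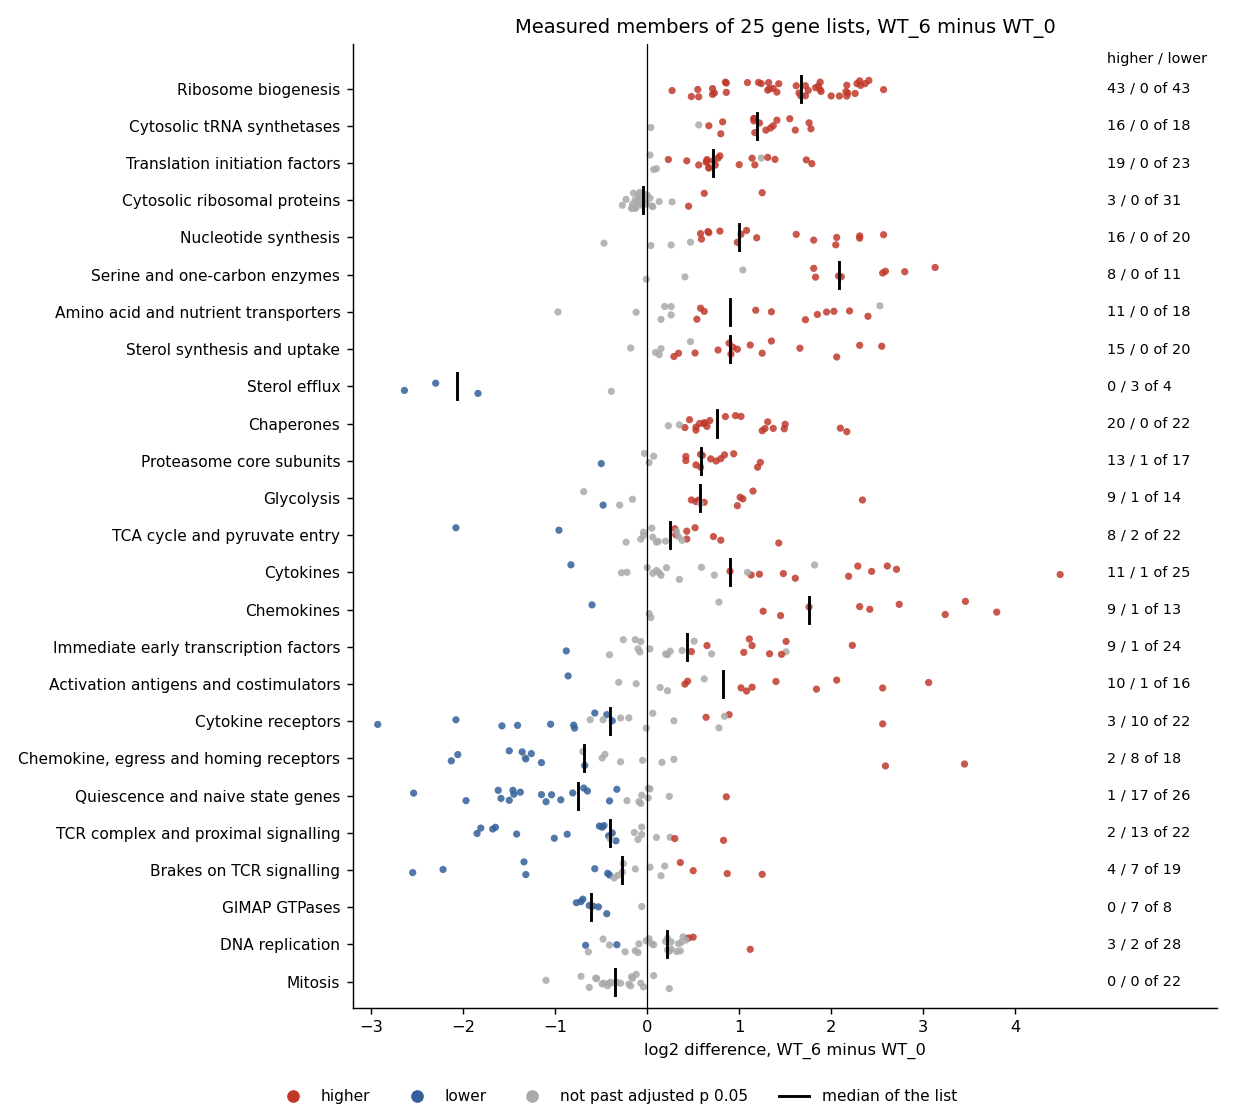
Each point is 1 measured gene of 25 gene lists, placed by its log2 difference, WT_6 minus WT_0; red is higher, blue lower and grey not past adjusted p 0.05, black bars are list medians, and counts stand at the right. Ribosome biogenesis lies wholly to the right of 0 (43 of 43 higher), ribosomal proteins at 0 (3 of 31), and quiescence genes mostly to the left (17 of 26 lower).

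Transcripts that serve the supply of building blocks were mostly higher as well. Of 18 transporters of amino acids and other nutrients, 11 were higher and none lower, with a median of 0.90 (1 was lower with the replicate as a block and without WT_0 replicate 2). Slc19a1, the reduced folate carrier, read 12.74 and 12.62 in WT_6, against 10.31 and 10.26 in WT_0 (2.40 ± 0.08, adjusted p = 3.4e-06). Slc29a1, a nucleoside transporter, was 2.03 ± 0.18 higher, Slc16a1, which carries lactate, 1.85 ± 0.14, and Slc1a5, a carrier of glutamine, 1.35 ± 0.15. Slc7a5, the large neutral amino acid carrier that T cells need to grow, chosen after its values were seen, read 13.61 and 14.10 in WT_6, against 11.68 and 12.13 in WT_0 (1.95 ± 0.36, adjusted p = 0.0031).

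Enzymes of serine and folate metabolism had the highest median of the metabolic lists, 2.08, with 8 of 11 higher and none lower. Shmt1, the cytosolic serine hydroxymethyltransferase, read 10.86 and 10.62 in WT_6, against 7.60 and 7.62 in WT_0 (3.13 ± 0.14, adjusted p = 8.6e-06). Its mitochondrial counterpart Shmt2 was 2.11 ± 0.27 higher and the folate enzyme Mthfd1 2.56 ± 0.12. Srm, spermidine synthase, which is not an enzyme of serine or folate, was 2.59 ± 0.13 higher. Psat1, of serine synthesis, read 12.05 and 13.28 in WT_6, against 9.69 and 10.03 in WT_0 (2.80 ± 0.52, adjusted p = 0.0033). Its WT_6 values lay far apart but both exceeded WT_0. Of 20 genes of nucleotide synthesis, 16 were higher and none lower, with a median of 1.0. Cad, which starts pyrimidine synthesis, read 12.10 and 11.88 in WT_6, against 9.64 and 9.73 in WT_0 (2.31 ± 0.10, adjusted p = 8.6e-06). Ctps, the CTP synthase that proliferating lymphocytes depend on in humans, was 2.57 ± 0.16 higher, and the purine enzyme gene Pfas 2.06 ± 0.11.

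Genes of cholesterol synthesis and of cholesterol export moved in opposite directions. Genes of sterol synthesis and uptake were higher in 15 of 20 and lower in none, with a median of 0.90, and 3 of 4 measured genes of sterol efflux and receptor degradation were lower, with a median of -2.07. Idi1, which makes the isoprenoid unit, read 11.84 and 11.81 in WT_6, against 9.38 and 9.17 in WT_0 (2.55 ± 0.13, adjusted p = 1.0e-05). Cyp51 and Sqle, later enzymes of the pathway, were 2.31 ± 0.18 and 2.06 ± 0.13 higher. Abcg1, a cholesterol exporter, read 9.47 and 10.44 in WT_6, against 12.36 and 12.82 in WT_0 (-2.64 ± 0.33, adjusted p = 3.7e-04). The exporter Abca1 fell by 2.30 ± 0.33, and Mylip, the ligase that degrades the LDL receptor, by 1.84 ± 0.17. Hmgcs1, an early enzyme of the pathway chosen after its values were seen, read 11.51 and 11.93 in WT_6, against 10.44 and 10.50 in WT_0 (1.25 ± 0.16, adjusted p = 4.5e-04). Its promoter is shown for its sterol element, TCACNCCAC, the site of the SREBP factors. RefSeq places it at chr13:119690101-119690400 on the plus strand, and capitals mark the element at -137 and an NFAT core at -73:
Hmgcs1 promoter: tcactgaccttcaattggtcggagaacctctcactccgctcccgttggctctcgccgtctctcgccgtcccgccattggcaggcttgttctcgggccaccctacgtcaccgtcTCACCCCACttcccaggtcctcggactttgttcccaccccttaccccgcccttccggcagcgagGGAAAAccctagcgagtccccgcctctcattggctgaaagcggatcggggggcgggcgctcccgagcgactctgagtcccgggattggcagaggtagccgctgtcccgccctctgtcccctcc
The element was found in 1 of 19 windows of this list (5.26%) and 1.24% of all windows, on either strand. Hmgcs1 was printed because it holds the element, so the share says little of the list.

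Transcripts of central carbon metabolism shifted less. Of 14 genes of glycolysis, 9 were higher and 1 lower, with a median of 0.57, but only 4 were higher without WT_0 replicate 2 or without WT_6 replicate 1. The lower member, Ldhb (-0.48), lost its call in each fit without 1 of the 4 arrays, and 2 were lower with the replicate as a block. Hk2, the inducible hexokinase, read 9.94 and 9.97 in WT_6, against 8.08 and 7.15 in WT_0 (2.34 ± 0.31, adjusted p = 5.4e-04), and Pgam1 and Pgk1 were 1.04 ± 0.15 and 0.98 ± 0.10 higher. Among 22 genes of the TCA cycle and pyruvate entry, 8 were higher and 2 lower, with a median of 0.25 (0.16 without WT_6 replicate 1), and 3 were higher without WT_0 replicate 1 or without WT_6 replicate 1. Pdk1, which blocks pyruvate entry into the cycle, read 9.49 and 9.72 in WT_6, against 11.61 and 11.76 in WT_0 (-2.08 ± 0.12, adjusted p = 1.5e-05). Idh3a, a subunit of the cycle's isocitrate dehydrogenase, was 1.43 ± 0.12 higher, and Idh2, the NADP-dependent form, fell by 0.96 ± 0.20.

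Transcripts of protein folding and turnover were mostly higher as well. Chaperones were higher in 20 of 22, with none lower and a median of 0.76. Hspd1, the mitochondrial chaperonin, read 13.20 and 12.92 in WT_6, against 10.88 and 10.89 in WT_0 (2.17 ± 0.11, adjusted p = 1.0e-05). Hsph1, a co-chaperone of HSP70, was 2.10 ± 0.12 higher, Cct3, of the cytosolic chaperonin, 1.5 ± 0.09, and Hspa5, the ER chaperone BiP, 1.02 ± 0.08. Core proteasome subunits were higher in 13 of 17, with a median of 0.58, led by Psma7 (1.23 ± 0.13) and Psma5 (1.2 ± 0.12). The 1 lower subunit was Psmb10 (-0.50), of the immunoproteasome, whose call was lost without WT_0 replicate 2 or WT_6 replicate 2.

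Cell cycle genes were followed by phase. G1 regulators split, with 4 higher and 6 lower of 18. Ccnd2, a D-type cyclin, read 13.98 and 13.86 in WT_6, against 12.45 and 12.43 in WT_0 (1.48 ± 0.10, adjusted p = 2.0e-05), and its kinase Cdk4 was 0.89 ± 0.09 higher. Ccnd3 fell by 0.90 ± 0.12 and Rb1, the retinoblastoma gene, by 1.06 ± 0.11. Of 28 DNA replication genes, 3 were higher and 2 lower, with a median of 0.21 (0.06 without WT_6 replicate 1, 0.33 without WT_6 replicate 2), and none was lower in any fit that left out 1 array. Fen1, a flap endonuclease, was 1.12 ± 0.22 higher. None of 22 mitosis genes passed in either direction with limma. Their median of -0.35 was 0.07 without WT_0 replicate 1, -0.03 without WT_6 replicate 2, -0.71 without WT_0 replicate 2 and -0.66 without WT_6 replicate 1, so it has no settled direction. The cyclin gene Ccna2 read 9.65 and 8.83 in WT_6, against 10.33 and 9.09 in WT_0, and the groups overlapped.

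The same genes were then read in the WT_24 arrays. The comparison of WT_24 with WT_6 shares the WT_6 arrays with the comparison above, so values are given side by side. Between WT_24 and WT_6, 1753 probe sets were higher (7.49%) and 1371 lower (5.86%), 13.3% in all, and by gene 7.92% were higher and 5.98% lower, 13.9% in all. The probe set counts were 867 and 418 without WT_24 replicate 1, 1142 and 759 without WT_6 replicate 1, and 1074 and 643 without WT_6 replicate 2, and with the replicate as a block 2239 and 2059. Of the DNA replication genes, 27 of 28 were higher at 24 h than at 6 h, with a median of 1.64. Mcm4, of the replicative helicase, averaged 11.39 at 0 h, 11.06 at 6 h and 12.62 at 24 h (24 h minus 6 h 1.56, adjusted p = 2.2e-04), and Dnmt1, which copies DNA methylation, 11.30, 10.78 and 12.42 (1.64, adjusted p = 2.7e-04). Mitosis genes had 14 of 22 higher at 24 h, but 1 without WT_24 replicate 1, 3 without WT_6 replicate 2 and 6 without WT_6 replicate 1.

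Several early feedback genes were lower at 24 h than at 6 h. Spry1 averaged 8.93 at 0 h, 12.48 at 6 h and 10.27 at 24 h (24 h minus 6 h -2.21, adjusted p = 3.0e-04). Dusp5 fell by 1.11 and Tnfrsf9 by 1.06 between 6 h and 24 h. Utf1 fell by 1.68 and Slc19a1 by 0.81. Of the ribosome biogenesis genes, 19 of 43 were lower at 24 h than at 6 h, with a median of -0.41 (-0.26 without WT_24 replicate 1), but 4 without WT_24 replicate 1, 6 without WT_6 replicate 1 and 12 without WT_6 replicate 2. Some genes that had fallen by 6 h were higher again at 24 h. Sit1 averaged 11.31 at 0 h, 8.76 at 6 h and 10.97 at 24 h (2.21, adjusted p = 5.4e-04), and Nfatc2 averaged 11.08, 10.05 and 11.07 (1.02, adjusted p = 6.3e-04). Itgb7, Pdk1, Ccnd3, Idh2, Il6ra and Il4ra were likewise higher at 24 h than at 6 h, by 1.66, 1.40, 1.29, 1.26, 0.97 and 0.95. Il2rb was higher again at 24 h (0.68, adjusted p = 0.0013).

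**Figure D4:**
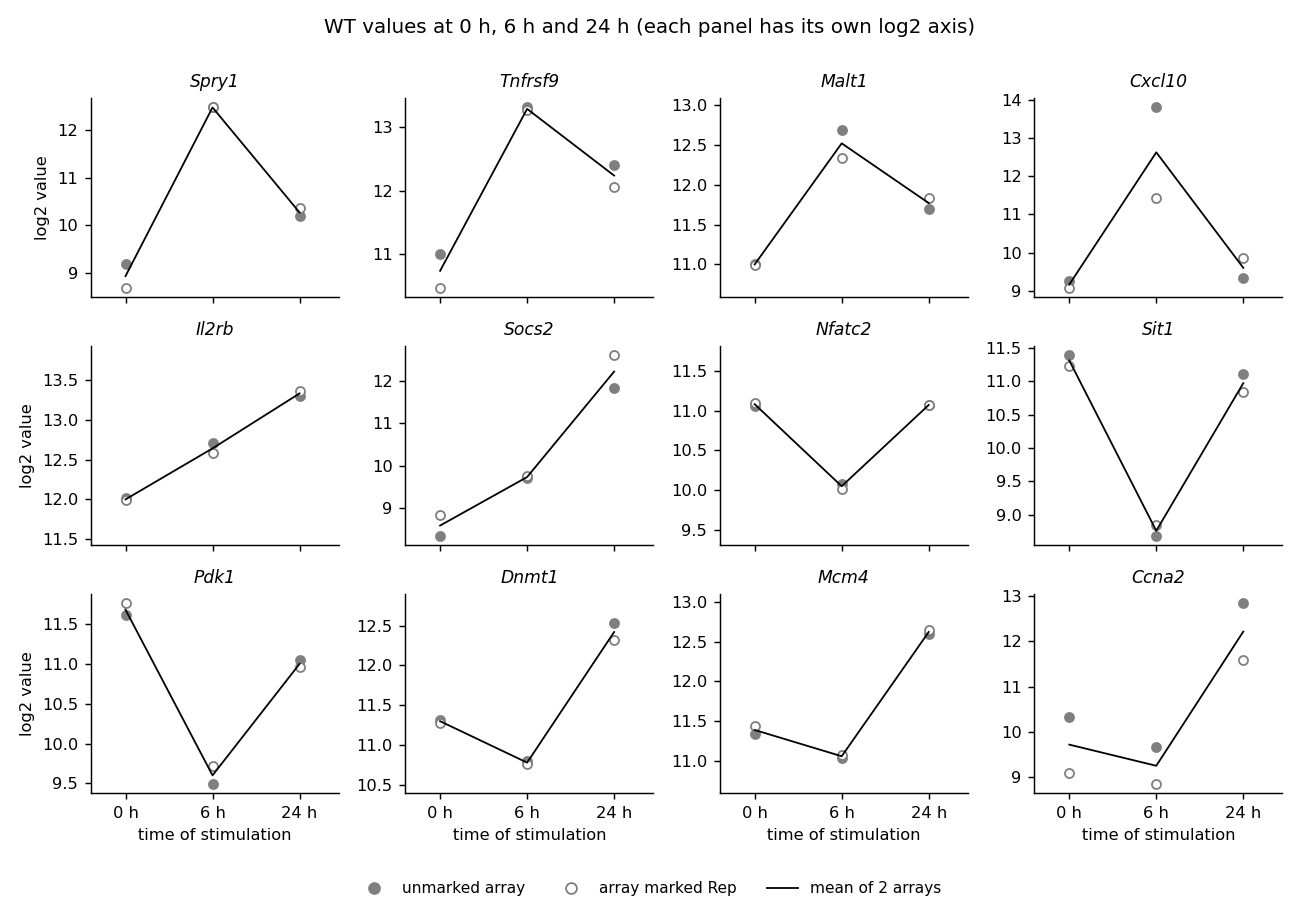
Log2 values of 12 genes in WT cells at 0 h, 6 h and 24 h of stimulation; filled points are replicate 1, open points replicate 2, lines join means of 2 arrays, and each panel has its own log2 axis. Spry1, Tnfrsf9, Malt1 and Cxcl10 peak at 6 h, Nfatc2, Sit1, Pdk1 and Dnmt1 are lowest at 6 h, and Il2rb, Socs2, Mcm4 and Ccna2 are highest at 24 h.

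Among 13 genes of the BCL2 family, which set the threshold of cell death, 3 were higher and 3 lower. Of all genes 12.5% were higher and 15.0% lower. Bcl2l1, the protective BCL-XL, read 10.62 and 10.86 in WT_6, against 8.87 and 8.67 in WT_0 (1.97 ± 0.18, adjusted p = 7.4e-05), and Bid, which promotes death, was 0.94 ± 0.10 higher. Bmf, also pro-apoptotic, fell by 1.0 ± 0.21 and Bad by 0.61 ± 0.13. Enzymes and readers of DNA methylation were higher in 2 and lower in 4 of 9. The de novo methyltransferases Dnmt3a and Dnmt3b were 0.54 ± 0.08 and 0.76 ± 0.15 higher. Tet1, which oxidises methylcytosine, read 7.61 and 7.98 in WT_6, against 9.63 and 9.70 in WT_0 (-1.87 ± 0.13, adjusted p = 2.7e-05), and Tet3 fell by 1.08 ± 0.10. Of 8 cytotoxic granule genes, 1 was higher and 2 lower, few to read beside those shares of all genes. Gzmk, a granzyme gene of antigen-experienced cells, fell by 1.37 ± 0.23, while the calls of Gzmb (2.06) and Prf1 (-1.34) were lost without WT_6 replicate 1, and that of Gzmb also without either WT_0 array.

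Interferon-stimulated genes depended on the replicate. Of 22 measured, 2 were higher and none lower, although the median was 1.03 (0.13 without WT_6 replicate 1, 1.80 without WT_6 replicate 2). The median difference was 1.76 within replicate 1 and 0.16 within replicate 2. With the replicate as a block 10 were higher and 1 lower, and without WT_6 replicate 2 there were 18 higher. Without WT_6 replicate 1 there were 1 higher and 2 lower, and without WT_0 replicate 2 there was 1 higher. Mx1, an antiviral GTPase, read 9.51 and 7.23 in WT_6, against 6.62 and 6.57 in WT_0 (adjusted p = 0.051, or 0.018 with the replicate as a block), and Ifit1 read 12.31 and 10.39 in WT_6, against 10.12 and 9.43 in WT_0 (adjusted p = 0.078, or 0.045 with the block). Replicate 1 of WT_6 was high in both. Bst2, tetherin, kept its call whichever array was left out, with 10.43 and 9.55 in WT_6, against 8.68 and 8.76 in WT_0 (1.26 ± 0.27, adjusted p = 0.0076). WT_6 replicate 1 also had high neutrophil transcripts, as did WT_0 replicate 1, and their part was not tested. Of 7 measured GTPases of the GBP and IRG families, induced by interferon gamma, 1 was higher, 3 were higher without WT_0 replicate 2 and 6 with the replicate as a block. Gbp5 read 11.92 and 11.97 in WT_6, against 8.84 and 9.60 in WT_0 (2.73 ± 0.39, adjusted p = 8.0e-04).

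The arrays also carry probe sets for miRNA loci, which read the transcript of the locus and not the mature miRNA. Of 355, 20 were higher and 15 lower, smaller shares than the 12.6% higher and 13.9% lower of all probe sets tested. miRNAs bind target mRNAs mainly through the seed, bases 2 to 8. The loci described here were chosen after their values were seen: miR-155, known in activated lymphocytes, the miR-17-92 cluster, known to promote T cell proliferation, and miR-181b, of a family known to raise receptor sensitivity in the thymus. Their mature sequences from RefSeq (GRCm38.p6) are shown so that the seeds, in capitals, can be compared. miR-155 lies at chr16:84714143-84714165, the cluster between chr14:115043684-115043706 (miR-17) and chr14:115044476-115044496 (miR-92a), and miR-181b-1 at chr1:137966650-137966673, all on the plus strand:
mmu-miR-155-5p: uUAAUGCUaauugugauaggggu
mmu-miR-17-5p: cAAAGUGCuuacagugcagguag
mmu-miR-20a-5p: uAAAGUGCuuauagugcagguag
mmu-miR-18a-5p: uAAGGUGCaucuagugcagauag
mmu-miR-19a-3p: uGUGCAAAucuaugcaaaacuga
mmu-miR-19b-3p: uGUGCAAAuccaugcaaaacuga
mmu-miR-92a-3p: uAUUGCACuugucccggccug
mmu-miR-181b-5p: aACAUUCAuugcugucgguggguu
miR-17 and miR-20a share the seed AAAGUGC, and miR-19a and miR-19b share GUGCAAA. miR-106b-5p and miR-20b-5p hold AAAGUGC too. The Mir106b probe set read lower in WT_6, so loci with this seed did not all rise.

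The Mir155 probe set read 10.29 and 10.31 in WT_6, against 7.71 and 7.74 in WT_0 (2.58 ± 0.26, adjusted p = 1.2e-04), with replicates almost equal at each time. All 7 probe sets of the miR-17-92 cluster were higher. The host gene Mir17hg read 8.99 and 8.98 in WT_6, against 7.34 and 7.69 in WT_0 (1.47 ± 0.15, adjusted p = 1.3e-04). Mir17, Mir18, Mir19a, Mir20a and Mir19b-1 were higher by 1.34, 1.29, 1.41, 0.85 and 1.18, and the probe set shared by Mir92-1 and Mir17hg by 1.27. These 7 read 1 transcript and are not independent. Mir181b-1 read 6.32 and 5.62 in WT_6, against 7.60 and 7.77 in WT_0 (-1.71 ± 0.28, adjusted p = 0.0018). Replicate 2 of WT_6 lay below the lower quartile of 5.81, and with that reading set to it the difference is at least 1.62. At 24 h both Mir155 (24 h minus 6 h -1.58, adjusted p = 0.0053) and Mir17hg (-1.05, adjusted p = 0.0029) were lower than at 6 h.

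**Figure D5:**
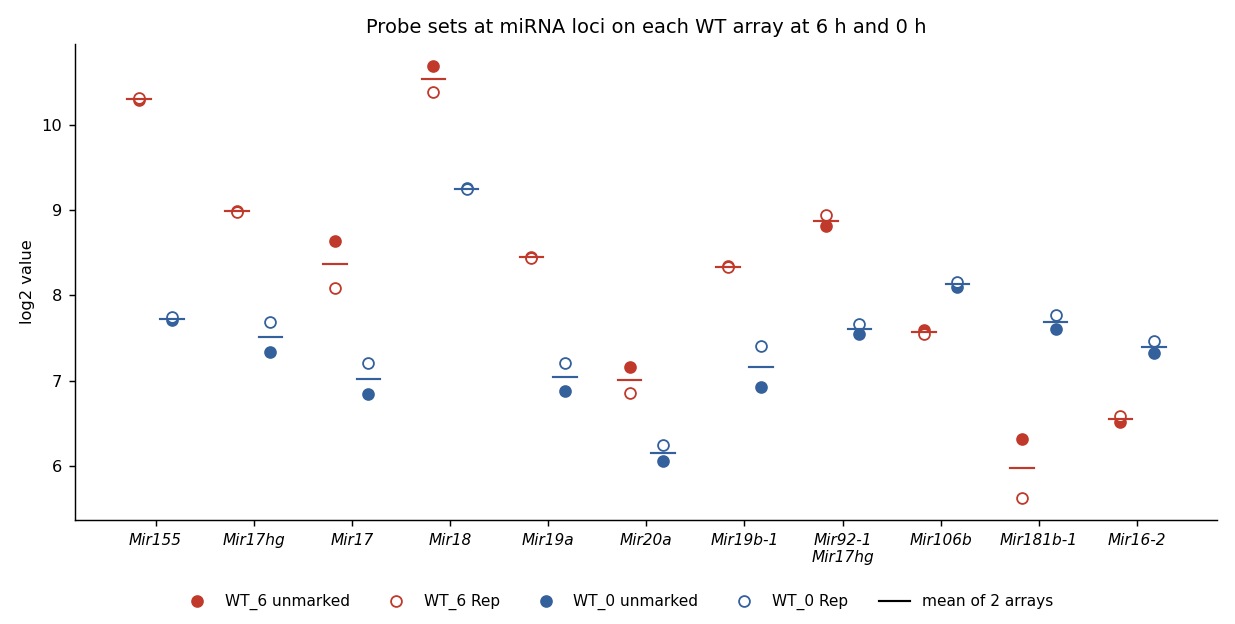
Log2 values of 11 probe sets at miRNA loci on each of the 4 arrays, WT_6 in red on the left and WT_0 in blue on the right; filled points are replicate 1, open points replicate 2, and lines are the means of 2 arrays. Mir155 and the cluster from Mir17hg to Mir92-1 read higher in WT_6, and Mir106b, Mir181b-1 and Mir16-2 read lower.

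The series was built around PP2A, so its subunits and its inhibitor gene Set were followed in the WT response. Of 18 measured, 3 were higher and 3 lower, with a median of 0.04 (0.02 without WT_0 replicate 1, 0.12 without WT_6 replicate 2), and 5 were higher with the replicate as a block. Among all genes 12.5% were higher and 15.0% lower, so the counts of 3 and 3 are near the background. Ppp2ca read 13.42 and 13.30 in WT_6, against 13.15 in both WT_0 arrays, a difference of 0.21 ± 0.08 that did not pass (adjusted p = 0.09). Set, an inhibitor of PP2A, was 1.08 ± 0.17 higher and the scaffold subunit Ppp2r1b 0.75 ± 0.11. The regulatory subunit gene Ppp2r5b fell by 0.97 ± 0.12. Ppp2r5c fell by 0.82 ± 0.07 on its brightest probe set, and 1 of 3 other probe sets disagreed.

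The 6 h response was also measured in transgenic cells, with no arrays in common. PP2Ac_Tg_6 against PP2Ac_Tg_0 had 2923 higher (12.5%) and 3012 lower probe sets (12.9%), 25.4% in all, and by gene 12.6% were higher and 13.7% lower, 26.3% in all. The test of the difference between the 2 responses called 0 probe sets with limma (0%), with 420 at an unadjusted p under 0.05 and a smallest adjusted p of 0.58 (at a probe set of Nova1, a splicing factor of neurons, that was dim in WT cells), and 1 was called without WT_6 replicate 1. With 2 arrays a group this does not show that the responses were alike. Ribosome biogenesis was higher in 43 of 43 genes in transgenic cells and 43 of 43 in WT cells, with medians of 1.71 and 1.67. The transgene's gene Ppp2ca read 13.80 and 13.69 in PP2Ac_Tg_6 and 13.90 and 13.88 in PP2Ac_Tg_0, against 13.42 and 13.30 in WT_6 and 13.15 in both WT_0 arrays. The largest moderated statistics of the difference, given as values only, included the interleukin 17 genes. Il17f read 8.72 and 9.25 in PP2Ac_Tg_6 and 7.01 and 7.0 in PP2Ac_Tg_0, against 7.16 and 7.54 in WT_6 and 6.88 and 7.12 in WT_0, a difference of responses of 1.63 ± 0.32 (adjusted p = 1). For Il17a the WT difference was 0.06 ± 0.13 and the transgenic one 1.18 ± 0.13 (difference 1.11 ± 0.18, adjusted p = 1).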

How the data were processed

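Total RNA of 12 samples in 6 groups of 2 was hybridised to one-colour arrays after extraction with TRIZOL and Qiagen columns and end-labelling of cDNA with biotin, per the labels' protocols. The authors deposited log2 values per probe set, which span 3.49 to 15.38 with array medians from 7.39 to 7.50. Their background correction, summarisation and build are steps not given in the sources used here. Those deposited values were quantile normalised between arrays and fitted with limma 3.58.1 in R 4.3.3, fitting 1 mean per group (residual df 6, prior df 3.05). Benjamini-Hochberg adjustment ran over the 23410 probe sets with at least 1 symbol (21789 with 1, 1621 with several). Each gene with a probe set of its own was read from the one with the highest mean. Tables were made with pandas 2.3.3 and numpy 2.4.6 under Python 3.11.15, figures with matplotlib 3.10.9, and the fit was tested on simulated data.

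The members and the gene lists were chosen with earlier results of these data known. The lists held 788 entries, of which 728 were measured, and the marker lists 75 entries with 69 measured. Genes were named by rule: the 20 largest differences in each direction without overlap between groups, from each list at most 6 members, taken by smallest p, and 18 genes always looked at. Other genes were named after their values were seen, as were the lone members of a list that went against its direction (Fosb, Cd226, Igfbp4, Ptprc, Ldhb, Psmb10). For Ldhb the other probe set disagreed.

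Arrays with the mark Rep deviated together. In all 15 pairs of groups the correlation of deviations from the group means was positive, from 0.138 to 0.591, and it was 0.591 between WT_6 and WT_0. The mark was therefore taken as a block in an alternative fit. The 2 WT_6 arrays had equal values at 0.0173% of probe sets and the 2 WT_0 arrays at 0.0104%, so neither pair was a copy. Besides the block, the results were computed with no further normalisation, after median centring, on all rows, on 1 probe set per gene and without the dimmest 40% of probe sets. The fit was also varied by array weights, by trended and robust moderation, by keeping the compared groups only, by testing against 1.2-fold and by leaving out each array.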

Additional observations from a re-analysis of the deposited data

Results flagged for a closer look

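Nr4a1, the orphan nuclear receptor, moved in opposite directions in the 2 intervals. It was 1.11 higher in WT_6 than in WT_0 and differed by -0.79 between WT_24 and WT_6 (limma, adjusted p = 0.012). The second call was lost without WT_6 replicate 2, without WT_24 replicate 2, in the fit of the compared groups only and against 1.2-fold. The intervals share the WT_6 arrays, and the contrast between them was not tested.

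Probe sets with no gene symbol, which no comparison of the report uses, also carried signal. Of 5443, 442 were higher and 251 lower in WT_6 than in WT_0, 12.7% in all, with 96 higher and 49 lower by at least 2-fold. That share is below the 26.5% of probe sets with a symbol.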

How the results depend on the processing

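Without 1 array, 2113 to 2607 probe sets were higher and 2234 to 2771 lower at 6 h (732 to 951 and 718 to 919 by at least 2-fold). Against 1.2-fold there were 1599 and 1649, in the fit of the compared groups only 2253 and 2425, and with the replicate block 3347 and 3784. WT_24 against WT_6 gave 587 higher and 171 lower in the fit of the compared groups only, 684 and 235 against 1.2-fold, 861 lower after median centring, 2239 and 2059 with the replicate block, and 867 to 1493 higher and 418 to 1109 lower without 1 array. The difference of responses gave 0 to 1 higher and 0 lower without 1 array. Of 207 genes named, 195 were called at 6 h, and 176 of these kept their call under every alternative run. Outside the fits that left out an array, Klf2, Fosb, Igfbp4 and Mcm4 lost their calls in the fit of the compared groups only, Psmb10 and Ptprc there and after median centring, Cd4 after median centring, Mcm4 also there and with values as deposited, and Ldhb with array weights. Against 1.2-fold these 8 and Ccl5, Cd226, Max, Rpl30, Bad, Dnmt1 and Socs2 did not pass. Ppp2ca passed with trended and robust moderation. Cd44 passed under 6 alternatives, as did Mx1, and each also without 1 array (Cd44 without WT_0 replicate 1, Mx1 without WT_6 replicate 2). The differences without 1 array ranged from -2.19 to 0.93 for Elane, -0.04 to 1.08 for Cd8a, -1.10 to 0.15 for Ccna2 and -0.02 to 0.15 for Il17a, none of which was called. Between WT_6 and WT_0 the replicate block changed no call of a named gene other than those given, and moved no other list count by over 1.5 times. The cause of these changes was not tested. With 2 arrays a group, differences of low-signal probe sets are the least certain, and readings near or below 5.81, the lower quartile, give bounds only.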

Other observations

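Markers of antigen-experienced T cells, which a naive preparation should hold little of, gave 1 higher and 4 lower of 8 in WT_6 relative to WT_0, with a median of -0.49 (-0.26 without WT_0 replicate 1, -0.30 without WT_6 replicate 2). The mean level of these 8 markers was 10.68 and 10.47 in WT_6, against 11.16 and 10.72 in WT_0. With the replicate as a block 2 were higher. None was lower without WT_0 replicate 1 or without WT_6 replicate 1, and 2 were lower without WT_0 replicate 2. Cxcr3, a homing receptor of Th1 cells, read 9.39 and 9.78 in WT_6, against 11.19 and 10.99 in WT_0. Cd44, an adhesion receptor of antigen-experienced cells, read 10.36 and 10.20 in WT_6, against 10.02 and 9.31 in WT_0, and did not pass (limma, adjusted p = 0.05, or 0.033 with the replicate as a block).

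Of 5 regulatory T cell markers, 1 was higher and 1 lower, or 2 higher without WT_0 replicate 1 and 2 lower with the replicate as a block. Their median of -0.39 was -0.01 without WT_0 replicate 1, -0.76 without WT_0 replicate 2 and -0.19 without WT_6 replicate 2. The higher one was Il2ra, which activated cells also express, and the lower one Nrp1, a semaphorin receptor, with 8.34 and 7.76 in WT_6, against 9.83 and 9.24 in WT_0 (-1.48 ± 0.26, limma, adjusted p = 0.0025). Foxp3, the factor that defines regulatory T cells, read 10.45 and 10.05 in WT_6, against 11.02 and 10.26 in WT_0 (limma, adjusted p = 0.51, or 0.027 with the replicate as a block), and the groups overlapped. None of 4 erythroid markers passed (limma), but 1 was higher without WT_0 replicate 1 and 1 lower without WT_0 replicate 2, where their median of 0.05 was 0.40 and -0.24.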
